A study of Homo sapiens with 2 samples.

Results

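HNRNPH1 is the gene of heterogeneous nuclear ribonucleoprotein H1. It held 8 of the 1406 distinct intervals in a list of peaks from an SF3B1 HITS-CLIP experiment. An interval was taken as a member if the deposited list gives it under the NCBI gene number of HNRNPH1 and its midpoint lies in the RefSeq span of the gene, at chromosome 5, 179614178 to 179634784 (hg38, as for all positions). All 8 rows listed under the gene met this rule, and none of the 8 intervals was listed under another gene. The gene was chosen by the number and the height of its peaks in this list, so both are given as a description, without a test.

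In HITS-CLIP, ultraviolet light crosslinks a protein to the RNA it touches. An antibody recovers the protein, and the attached RNA is sequenced in short pieces, the tags. The study had 1 group of 2 biological replicates, both of MDA-231-LM2, a subline of the MDA-MB-231 breast cancer line that was selected for metastasis to the lung. The antibody label, the title and the design text name SF3B1, whereas the extraction text names SNRBP2, a difference that was not resolved. There was no control, input or second condition, and the authors deposited 1 peak list made from the tags of both libraries together, so no value has a replicate error and the depth of each library is unknown.

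SF3B1 is the largest subunit of the SF3b part of the U2 small nuclear ribonucleoprotein (snRNP), the particle that recognises the branch point of an intron ahead of splicing. Because a branch point is needed for every intron, a transcript with many introns offers SF3B1 many places to bind. HNRNPH1 encodes an abundant nuclear RNA-binding protein that recognises runs of guanosines through quasi-RNA recognition motifs and promotes or represses the use of nearby exons. Genes of such splicing regulators are themselves often alternatively spliced, and some of the proteins act on their own transcripts.

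The 8 intervals formed one compact cluster in the downstream part of the gene, on the strand of the HNRNPH1 transcript. They lay between 179616197 and 179621442, a stretch of 5246 nt that makes up 25.5% of the gene span. The 13342 nt upstream of the cluster (64.7% of the span) and the 2019 nt downstream of it (9.80%) held no interval. No peak there passed the authors' filter, which does not mean that no tag was read. The RefSeq promoter table gives HNRNPH1 4 transcription starts, at 179634784, 179624600, 179623671 and 179623401, on the minus strand. The gene span begins at the first of them, 13367.5 nt before the midpoint of the first interval, against at most 3183.5 nt for the others. Shares of the span and values per kb of span therefore rest on that start. All 8 intervals lay downstream of all 4 starts. None touched a promoter window (250 nt before to 50 nt after a start) of any gene, as only 18 of the 1406 intervals in the list (1.28%) did. A long noncoding RNA gene, LOC128966623, overlaps the gene span, but its start is on the plus strand, opposite to the intervals. No interval of the cluster lay in a small RNA or rRNA gene.

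In the order of transcription, the first interval was chr5:179621391-179621442, with its midpoint 1.98 kb downstream of the last annotated start. At its top the peak was 48 pooled tags high (95% exact Poisson interval 35.4 to 63.6; these intervals cover counting error only). The second, chr5:179621027-179621074, lay 366 nt further along, at 2.35 kb, and reached 26 tags (16.98 to 38.1). The taller peak of this upstream pair was thus the one nearer to the starts.

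After a gap of 1606 nt came a run of 5 intervals within 1555 nt, which held the tallest peaks of the gene. The third interval of the gene, chr5:179619423-179619466 at 3.96 kb, had 24 tags (15.4 to 35.7). The fourth, chr5:179619133-179619177 at 4.25 kb, had 57 tags (43.2 to 73.9). The fifth, chr5:179618676-179618718 at 4.70 kb, was the lowest of the gene with 16 tags (9.15 to 26.0). Low and tall peaks therefore followed each other at short distance within this run.

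The sixth interval, chr5:179618334-179618378 at 5.045 kb, was the tallest of the gene with 62 tags (47.5 to 79.5). The seventh, chr5:179617912-179617954 at 5.47 kb, had 23 tags (14.6 to 34.5) and closed the run. The eighth, chr5:179616197-179616240 at 7.18 kb, stood alone after a gap of 1714.5 nt, with 17 tags (9.90 to 27.2). It was the interval nearest to the end of the gene, 2040.5 nt from it.

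**Figure D1:**
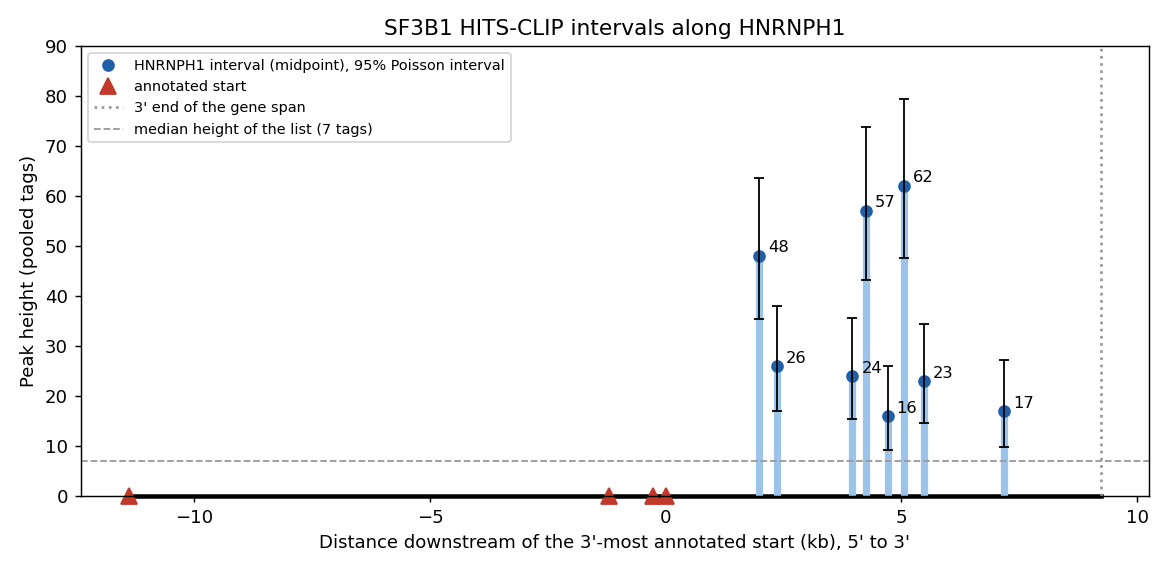
Peak height in pooled tags (vertical axis) of the 8 HNRNPH1 intervals by distance of the midpoint from the most downstream annotated start (horizontal axis, kb, in the direction of transcription); error bars are 95% exact Poisson intervals, triangles are the 4 annotated starts, the dotted line is the end of the gene span and the dashed line the list's median height of 7 tags. All 8 intervals lie between 1.98 and 7.18 kb downstream of the last start, and the tallest, of 57 and 62 tags, lie in the run of 5 in the middle.

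The heights spread 3.88-fold within the gene, from 16 to 62 tags, with a median of 25. They fell into a taller and a lower set. The 3 tallest intervals, of 62, 57 and 48 tags, held 167 of the gene's summed height of 273 tags (61.2%), and their Poisson intervals overlapped one another, so their order among themselves is not resolved. Here and below, a summed height adds the tags at the top of each peak and is not the number of all tags. The other 5, from 16 to 26 tags, overlapped one another too and summed to 106. The 57 and 62 tags did not overlap with any of these 5, whereas the interval of 48 tags (35.4 to 63.6) overlapped slightly with those of 26 (16.98 to 38.1) and 24 tags (15.4 to 35.7). By stretch, the run of 5 held 182 tags (66.7%), the upstream pair 74 (27.1%) and the last interval 17 (6.23%).

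The spacing was short and fairly even apart from the 2 wide gaps. Of the 7 gaps between neighbouring midpoints, 5 measured 289.5 to 458 nt and the remaining ones 1606 and 1714.5 nt, with a median of 423 nt. On the same strand, 7 of the 8 intervals had another interval within 500 nt, which holds for 76 of all 1406 intervals (5.41%) and for 69 of the 1398 outside HNRNPH1 (4.94%). The median distance to the nearest interval was 353.5 nt in HNRNPH1 and 298 kb over the list. Since the gene was chosen for its cluster, this contrast describes the cluster and is no evidence for it. Outside the gene, the nearest interval on the minus strand lay 217 kb upstream, in MRNIP, with 6 tags, and 1394 kb downstream, in PHYKPL, also with 6 tags. The cluster was thus isolated on its strand.

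The intervals were about as wide as those of the whole list, except the upstream pair. By the file name, the edges of an interval lie where the tags drop to a fixed share of the peak. Widths were 43 to 45 nt in 6 of the 8, against a median of 43 nt and quartiles of 42 and 44 nt over the list. This pair measured 52 nt for the interval of 48 tags and 48 nt for that of 26 tags, and 90.2% of the list was narrower than 52 nt. The tallest peaks were not the widest, since the peaks of 57 and 62 tags both spanned 45 nt. Together the 8 intervals covered 364 nt, 1.77% of the gene span.

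Against the rest of the list, every HNRNPH1 interval was a tall one. The list's median height was 7 tags, with a range of 3 to 248, and 170 of its 1406 intervals (12.1%) reached the 16 tags of the lowest HNRNPH1 interval. The 8 intervals made up 0.569% of the intervals and 1.74% of the list's summed height of 15680 tags. The lowest exceeded 87.9% of the list and the tallest 98.4%, with 21 intervals above it. Among the 1306 intervals in protein-coding genes, 142 (10.9%) reached 16 tags and 7 exceeded 62. HNRNPH1 thus held several tall peaks, but not the tallest of the list. Only peaks called significant are listed, and each gene has its own reference height there (PH0, described below). In the 12 other protein-coding genes with a PH0 of 1 to 2, near the 1.53 of HNRNPH1, no listed interval was below 13 tags. Low peaks of such genes may therefore be missing from the list. How far this filter sets the contrast in height, here and in the ranks by height, was not tested.

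By summed height HNRNPH1 came first among the 1057 protein-coding genes with an interval (5.27% of 20050). Its 273 tags were followed by 248 for WDR74, a ribosome biogenesis gene whose only interval falls in the U2 snRNA gene RNU2-2. COL7A1, which encodes type VII collagen, had 136 tags, also in 1 interval. PHACTR1, a regulator of protein phosphatase and actin, had 122 in 2 intervals. SNX5, a sorting nexin of endosomes, had 120 in 3, and the ribosomal protein gene RPL13A 107 in 3. The sums of WDR74 and COL7A1 thus rested on a single peak each, whereas HNRNPH1 held 8. The noncoding RNAs MALAT1, with 543 tags, and the mitochondrial rRNAs RNR2 and RNR1, with 498 and 281, exceeded it.

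By number of intervals 1 gene stood above HNRNPH1. NAV2, the neuron navigator gene, held 9, but over 386430 nt, with a median gap of 22661 nt and heights of 5 to 13 tags. LAMA5, the laminin alpha 5 chain, held 6 intervals of 10 to 23 tags, and ACTB, cytoplasmic beta-actin, 5 of 7 to 14 tags. A further 8 genes held 4 each. Of all protein-coding genes with an interval, 49 (4.64%) held 3 or more. Among these 49, HNRNPH1 had the second highest median height, after RPL13A with 36 tags, and the second shortest median gap, after ACTB with 323 nt. The list held 61 intervals in rRNA or small RNA genes, none of them in HNRNPH1. Small RNA genes can lie inside other genes, and among the compared protein-coding genes such a peak is named here only for WDR74. Heights of compared genes may therefore include peaks on small RNAs, here and in the other comparisons. A median gap of at most 500 nt was found in 4 of the 49 (8.16%), HNRNPH1 included. Per kb of gene span, its 0.388 intervals ranked ninth, below short genes such as ACTB (1.45) and NOP56 (0.694). Counted from a later start of HNRNPH1, its value per kb would be higher.

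**Figure D2:**
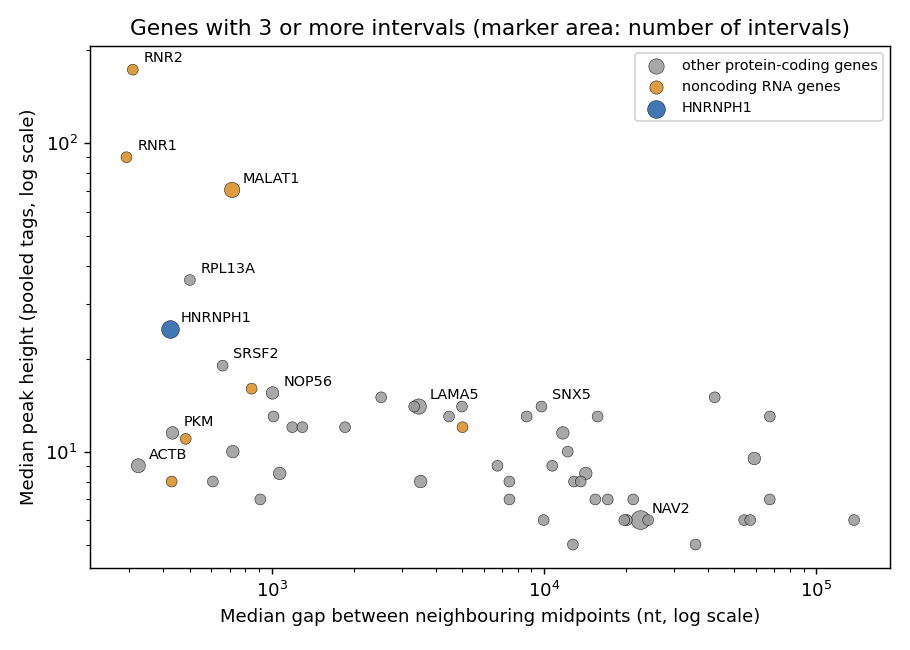
Median peak height in pooled tags against the median gap between neighbouring interval midpoints in nt (both axes on a log scale) for the 49 protein-coding and 7 noncoding RNA genes with 3 or more intervals; the marker area is proportional to the number of intervals. HNRNPH1, with 25 tags and 423 nt, lies at the tall and tightly spaced end of the protein-coding genes, far from NAV2 at 6 tags and 22661 nt.

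A stretch of the length of the HNRNPH1 cluster was moved along each strand of every chromosome to look for other clusters, a search made after the cluster was known. No other stretch of 5246 nt held as many intervals. The next were the mitochondrial RNR1 and RNR2, with 6 intervals of 78 to 195 tags, and MALAT1, a nuclear long noncoding RNA, with 6 of 34 to 206 tags. ACTB held 5 of 7 to 14 tags, and NOP56, a core protein of box C/D small nucleolar RNPs, and RPL10, a ribosomal protein, 4 each. Those of NOP56 had 14 to 33 tags and those of RPL10 8 to 13. Among these 6 stretches, the ones with the higher peaks belonged to abundant noncoding RNAs, and HNRNPH1 was the protein-coding gene with the highest summed height.

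The deposited list also gives each gene a reference height, PH0, read here as the height expected for the gene. PH0 was 1.53 for HNRNPH1, the seventh highest among the 1057 protein-coding genes with an interval, whose median was 0.04. Relative to it, the heights were 10.5 to 40.5 times PH0, with a median of 16.3. The median ratio over the 1258 protein-coding intervals with a PH0 above 0 was 167, with quartiles of 81.8 and 333. Of these intervals, 10.3% had a ratio below the highest of HNRNPH1 and 2.15% one below its median. The gene was therefore near the top of the list by height and near the bottom by ratio. No listed height was below 3 tags, so at the median PH0 of 0.04 no interval could have a ratio as low as 16.3. Low PH0 values are also coarsely rounded. The low place of HNRNPH1 by ratio thus follows in part from its high PH0. PH0 differs between genes with whatever sets it, and transcript level and binding cannot be told apart in it.

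The deposited p-values separated the HNRNPH1 intervals little. For 6 of the 8, from 23 to 62 tags, the same value of 1.44e-09 was listed. The interval of 17 tags had 8.58e-05 and that of 16 tags 0.00089, against a highest listed p-value of 0.0499. None had the lowest value of the list, 1e-100, which 269 of the 1406 intervals (19.1%) carried. Of the 20 intervals in other protein-coding genes with a PH0 of 1 to 2, 8 carried it. Among them were peaks of 28 tags in RPL13A (PH0 1.64) and 33 tags in NOP56 (PH0 1.55), both lower than the 62 tags of HNRNPH1. The listed p-values thus did not follow height and PH0 alone, and they do not rank peaks between genes. The method behind these p-values is not given in the sources used here, and they serve as a description only.

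Genes with a like PH0 gave a closer comparison, chosen after the values were seen. Between 1 and 2, PH0 was listed for 12 protein-coding genes besides HNRNPH1, which together held 20 intervals of 13 to 248 tags with a median of 20.5. Their median ratio was 15.3, close to the 16.3 of HNRNPH1. None had more than 4 intervals, the number of NOP56, whose PH0 of 1.55 is nearly that of HNRNPH1 and whose heights were 14, 15, 16 and 33 tags. SRSF2, an SR splicing factor with a PH0 of 1.72, held 3 intervals of 16 to 22 tags, and RPL13A, with 1.64, held 3 of 28 to 43. HNRNPH1 has the longest span of these genes, with 20607 nt against a median of 5231.5 nt for the others. Per kb of span, 7 of the 12 held more intervals than the 0.388 of HNRNPH1, among them SRSF2 (0.910), NOP56 (0.694) and RPL13A (0.638). At a like PH0, HNRNPH1 thus had a similar median ratio and the most intervals, but not the most per kb of span. Its length and its value per kb here rest on a span taken from its most upstream start. From a later start the length would be shorter and the value per kb higher.

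**Figure D3:**
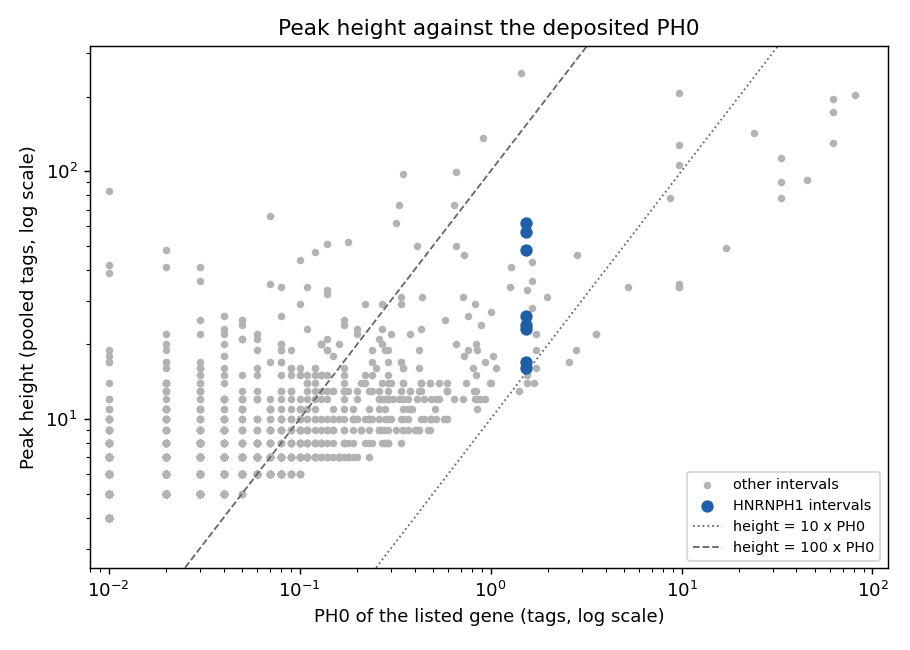
Peak height in pooled tags against the deposited PH0 of the listed gene (both on a log scale) for the 1331 distinct intervals with a PH0 above 0, each shown with the first gene it is listed under; 75 intervals with a PH0 of 0 are left out, and the lines mark heights of 10 and 100 times PH0. The 8 HNRNPH1 intervals form a column at 1.53, between 10.5 and 40.5 times PH0, while most intervals lie at lower PH0 and higher ratio.

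The closest relatives of HNRNPH1 carried few intervals. HNRNPH2, HNRNPF and GRSF1, which share its quasi-RNA recognition motifs, held none. HNRNPH3 held 2 on the plus strand of chromosome 10, chr10:68338436-68338491 with 16 tags and chr10:68339415-68339457 with 9 tags, at a PH0 of 0.35. Its summed 25 tags compare with 273 for HNRNPH1. An absent interval says that no peak passed the authors' filter, not that no tag was read. HNRNPH1 and HNRNPH2 are close in sequence. The file name calls the tags unique, but does not say whether this means 1 matching place or the removal of duplicate tags. Tags that match both could be lost or misplaced, and their number was not known.

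The core hnRNP genes other than HNRNPH1, among which HNRNPH2, HNRNPH3 and HNRNPF are counted again, encode abundant nuclear RNA-binding proteins with roles in splicing, export and stability, and held at most 2 intervals each. Of the 28 genes, 14 (50%) held one, 8 of them 1 interval and 6 of them 2. The share was 5.27% among all 20050 protein-coding genes, whether transcribed in this line or not. The 20 intervals of the 14 core hnRNP genes had 6 to 27 tags with a median of 12. Of these intervals, 5 reached the 16 tags of the lowest HNRNPH1 interval. The tallest were in HNRNPA2B1, with 27 tags beside another of 14, HNRNPM with 20, HNRNPD with 19 and HNRNPA1 with 17 beside one of 12. The summed height of the 14 genes, 258 tags, was below the 273 of HNRNPH1 alone. The highest PH0 among them was 1 for HNRNPA2B1, against 1.53 for HNRNPH1. This list had been chosen with earlier results of these data known.

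By number of intervals and median height together, the genes nearest to HNRNPH1 among those with 3 or more intervals were LAMA5, NOP56 and SRSF2. The Euclidean distance on log2 scales was 0.93 for LAMA5, 1.21 for NOP56 and 1.47 for SRSF2. LAMA5, with 6 intervals of a median of 14 tags, spread them over 23316 nt, while the 4 of NOP56 lay within 3709 nt and the 3 of SRSF2 within 1362 nt. Their median gaps, 3466.5 nt in LAMA5, 1006 nt in NOP56 and 659.5 nt in SRSF2, were all wider than the 423 nt of HNRNPH1.

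Around the locus, other genes carried intervals on the opposite strand, each below the 16 tags of the lowest HNRNPH1 interval but none below the list's median of 7. RUFY1, an effector of endosomal Rab proteins and the protein-coding neighbour at the downstream end of HNRNPH1, held 1 of 12 tags. SPATA31J1, a long noncoding RNA gene at the upstream end, held none. Further away, CANX, the chaperone calnexin, held 1 of 7 tags, and SQSTM1, the autophagy receptor p62, 3 of 7, 9 and 10 tags.

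The cell line could be checked against markers only by whether a gene held an interval. Of the markers of a mesenchymal-like breast cancer line, VIM (18 tags), AXL (31, 13 and 10) and PLAU (9) held intervals, and CD44 and CAV1 held none. Of ESR1, PGR, GATA3, CDH1, PTPRC and ALB, genes of other cell types, CDH1 alone held one, of 3 tags, the lowest height in the list. These are 3 of 5 and 1 of 6 genes, against 5.27% of all 20050 protein-coding genes, whether transcribed in this line or not. A peak list gives no transcript level, so for HNRNPH1 the tags due to abundant RNA and those due to frequent contact with SF3B1 cannot be told apart.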

How the data were processed

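HITS-CLIP tags of both libraries were pooled by the authors into 1 list of significant peaks from tags called unique, per the file name. In what sense they are unique is not given. The submitters' processing notes name the tools BWA 0.7.17 and cutadapt 2.3 and the build hg38. How peaks were called and against which annotation is not given in the sources used here. As deposited, the signal is the peak height in tags, without normalization. The deposited text field adds a gene number, PH0 and a p-value.

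Rows that share all of their coordinates and the strand count as 1 interval. Of 1191 gene numbers, 1190 matched the RefSeq table of GRCh38.p14. That table has no exons and no genome sequence was used, so exon, intron and splice site positions and the bases of the intervals were not analysed here. Gaps were taken between midpoints. Intervals on heights are exact Poisson ones at 95%. The members and the gene lists were chosen with earlier results of these data known. Named genes were HNRNPH1, its relatives, core hnRNP genes, markers, neighbours at the locus, the 5 protein-coding genes with the most intervals (ties at 4 given as a count) and the 5 with the highest summed height, and the 3 most like HNRNPH1; others were named after their values were seen. No test was run, since the gene was picked from this list. Alternatives changed the assignment, merging within 50 nt, the height minimum and the set of genes. The assignment and gaps were tested on simulated data. The work was done in Python 3.11.15 with pandas 2.3.3, scipy 1.17.1, numpy 2.4.6 and, for figures, matplotlib 3.10.9.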

Additional observations from a re-analysis of the deposited data

How the results depend on the processing

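The 8 intervals of HNRNPH1 were found under all 5 alternatives tried: any overlap with the gene span, the listed gene number alone, all rows, merging within 50 nt, and only heights above the list's median. None of these could change the count. All 8 rows listed under the gene were distinct and inside its span. Their narrowest gap was 289.5 nt and their lowest height 16 tags. The median height of 25 tags was 24 without the tallest interval, 26 without the lowest and 34.1 as a mean. The median ratio to PH0 of 16.3 became 15.7, 16.99 and 22.3 under the same changes. The median gap of 423 nt was 611 nt without the tallest interval, whose removal joins 2 neighbouring gaps, and 743 nt as a mean, which includes both wide gaps. By number of intervals HNRNPH1 was second among protein-coding genes, rank 1 among intervals above the list's median height and rank 9 per kb among genes with 3 or more. By summed height it was first, and rank 4 with noncoding RNA genes included. The first rank also held without each gene's tallest interval, without intervals in rRNA or small RNA genes, and, an alternative added after seeing the data, among genes with 3 or more intervals. The latter 2 could only remove or lower rivals, since HNRNPH1 lost no interval by them. Leaving out the tallest intervals removed the only peaks of WDR74 and COL7A1. The lead of HNRNPH1 over WDR74 with all intervals was 1.10-fold, and the 95% Poisson intervals of both sums overlap, 242 to 307 for HNRNPH1 and 218 to 281 for WDR74. No paired analysis was possible because the deposited list pools both replicates, and for the same reason no library could be left out.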

Other observations

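The product of PH0 and the RefSeq span would follow the total tags of a gene if PH0 were an average over that span, which the sources do not state. HNRNPH1 had the second highest product among the 1057 protein-coding genes with an interval, 31529, after PLEC, the cytolinker plectin, with 36340. The span of HNRNPH1 was again taken from its most upstream start, and with the same PH0 a later start would give a lower product. PLEC held 3 intervals of 13 tags each over 61593 nt of span, whereas HNRNPH1 held 8 of 16 to 62 tags. COL7A1 followed with 28444 and 1 interval, and LAMA5 with 25047 and 6. Genes with like products thus differed in how many peaks were listed and in their height.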
